A study of Mus musculus with 6 samples.

Results

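The splicing factor and snRNP genes described here are the mouse genes whose symbols start with Srsf, Hnrnp, Snrp, Sf3a, Sf3b, U2af or Prpf. The rule picks them by symbol alone, from probe sets that the platform annotation gives a single gene, and uses no measured value. The rule found 51 genes read by 70 probe sets, of 8251 genes named by a single symbol in the table, and 1 further probe set named for a pseudogene, which is described apart. A probe set is a group of short probes meant to read a transcript, and some share probes with related transcripts. Of the 70 probe sets, 60 passed the filter on dim signals, and these named 50 genes.

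The samples came from NIH3T3, an immortalised mouse fibroblast line, and every sample carried the same constructs. The replicate 1 titles name the cells 35/1-22, and the replicate 2 titles give no such name. The oncogenes c-myc and Ha-ras were stably expressed from a Tet-off promoter, which doxycycline silences. A fusion of the transcription factor IRF-1 with the human estrogen receptor (IRF-1hER) was made constitutively, controls included, and is activated by estradiol. The doxycycline group (2 µg/ml, oncogenes off), the withdrawal group (no doxycycline, oncogenes on) and the estradiol group (no doxycycline, 1 mM estradiol as the labels give it, 48 h) held 2 arrays each. Replicate 2 of the doxycycline group has E2 in its title although its treatment entry holds only doxycycline, and no group received estradiol with the oncogenes off by its treatment entry. The questions the groups address are how expression differs when the oncogenes are switched on, and how it differs when IRF-1 is activated on top of them. The comparisons share arrays, so their values are set side by side and not taken as separate evidence.

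Splicing removes introns from pre-mRNA in the spliceosome, which is built from small nuclear ribonucleoprotein particles (snRNPs) named for their RNAs U1, U2, U4, U5 and U6. A ring of Sm proteins sits on most of these RNAs, U2AF and the SF3A and SF3B complexes mark the end of the intron and its branch site, and PRPF proteins bring in and activate the U4, U5 and U6 particles. SR proteins mostly favour the use of exons by binding enhancer sequences in them, and many hnRNP proteins bind nascent RNA and can oppose that use. Splicing factor genes are widely transcribed in dividing cells, fibroblasts included, and several are known targets of MYC.

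The arrays did not group by their labels alone. On the scale used here, log2(signal + 32), the first withdrawal array and the first estradiol array differed at least 2-fold in 0 of the 60 tested members and in 0.215% of all tested probe sets. The 2 withdrawal arrays, in contrast, differed that much in 15 members (25%) and in 12.3% of all tested probe sets. The second withdrawal array also stood apart from the first estradiol array, with 15 members at least 2-fold different (25%, against 12.6% of all tested probe sets). From the first and second doxycycline arrays it differed that much in 7 (11.7%) and 8 members (13.3%), beside 4.35% and 7.81%. From the second estradiol array it differed in 4 members (6.67%), beside 8.71%. Over all tested probe sets it was thus nearest to the first doxycycline array. The first withdrawal array differed from the first and second doxycycline arrays in 6.55% and 8.83% of all tested probe sets. The doxycycline arrays differed that much from each other in 0 members and 3.8% of probe sets. Replicate 1 RNA was extracted with RNeasy and replicate 2 RNA with TRIzol in every group. Whether replicates came from separate cultures is not stated in the labels, so a p-value here measures the spread among these arrays alone, and that spread may be technical. The labels also do not say whether the first withdrawal and first estradiol arrays, which read so alike, came from distinct cultures, and every value for estradiol against withdrawal rests partly on that pair. In RNA from whole cultures, fewer cells of a type and less RNA per cell cannot be told apart.

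Fibroblast markers were present in these libraries. All 12 listed marker genes were on the array, and 15 of their 18 probe sets were above the filter. Their summed signal was 29109 to 31546 with doxycycline, 22619 to 28711 after withdrawal and 17699 to 22615 with estradiol. Few probe sets for other cell types passed the filter, namely 2 of 13 epithelial, 2 of 15 leukocyte, 1 of 11 endothelial and 3 of 10 neuronal ones. Their summed signals ran from 224.5 to 341 for epithelial, 273 to 346 for leukocyte, 206 to 261 for endothelial and 460.4 to 785 for neuronal markers. The ratio of the 3' to the 5' Gapdh control signal, a measure of RNA integrity, was 0.831 and 0.799 for doxycycline, 0.737 and 0.921 for withdrawal and 0.751 and 0.876 for estradiol. The same ratio for beta-actin was 1.05 and 1.04 for doxycycline, 1.11 and 1.07 for withdrawal and 1.14 and 1.16 for estradiol. The part of cell makeup or RNA quality in the member values was not tested.

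No splicing factor or snRNP gene passed the test in any comparison. With limma and adjustment over all 7453 tested probe sets, 0 of 60 members had an adjusted p under 0.05 for withdrawal against doxycycline, for estradiol against withdrawal or for estradiol against doxycycline, and percent called among all tested probe sets was 0 in each. Differences are therefore given as values, and "higher" or "lower" below states the sign of a difference that did not pass. For withdrawal against doxycycline, 2 members (3.33%) had an unadjusted p under 0.05, against 4.37% of all tested probe sets. In estradiol against withdrawal this was 0 members against 0.698%, and in estradiol against doxycycline 4 members (6.67%) against 14%. The members' shares lay near or below the background.

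These counts moved with single arrays, and so did the share of all tested probe sets. For withdrawal against doxycycline, 9 members (15%) had an unadjusted p under 0.05 without the first withdrawal array, beside 8.64% of all tested probe sets, and 5 (8.33%) without the second, beside 12.2%. The count was 1 (1.67%) without the first doxycycline array, beside 4.71%, and also 1 without either estradiol array, beside 3.11% and 3.1%. Without the second doxycycline array it was 0, beside 1.62%. For estradiol against withdrawal it was 15 (25%) without the first withdrawal array, beside 16.2%, and 0 without any other single array, beside 0.242% to 2%. For estradiol against doxycycline it was 12 (20%) without either withdrawal array, beside 20.3% in both cases, and 5 (8.33%) without the first estradiol array, beside 11%. It was 2 (3.33%) without the first doxycycline array, beside 10.2%, 1 (1.67%) without the second, beside 6.4%, and 0 without the second estradiol array, beside 4.08%. Adjusted over all tested probe sets, 0 members passed under each of these omissions.

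By sign alone, after withdrawal 30 members (50%) were higher than with doxycycline, beside 51.8% of all tested probe sets, and the median log2 fold change of the members was 0.00 beside 0.01 for all. With estradiol, 47 members (78.3%) were higher than after withdrawal, beside 51%, with a median of 0.20 beside 0.01. Against doxycycline, 43 members (71.7%) were higher with estradiol, beside 50.4%, with a median of 0.22 beside 0.00. The counts that involve the withdrawal group changed with the array left out. Without the second withdrawal array, 43 members were higher after withdrawal than with doxycycline (median 0.26), beside 3704 of all 7453 tested probe sets. With estradiol, 28 were then higher than after withdrawal (median -0.02), beside 3773. Without the first withdrawal array, 25 members were higher after withdrawal than with doxycycline (median -0.07), beside 3885. With estradiol, 50 were then higher than after withdrawal (median 0.40), beside 3745. Without the second doxycycline array, whose title also names E2, 34 members were higher after withdrawal than with doxycycline (median 0.06), beside 3901. With estradiol this count was 41 (median 0.25), beside 3860. Without the first doxycycline array, these counts were 28 (median -0.02), beside 3850, and 37 (median 0.27), beside 3683.

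Some members had groups that did not overlap. After withdrawal, 9 members (15%) read higher on both arrays than on both doxycycline arrays, beside 16.8% of all tested probe sets, and 4 (6.67%) read lower, beside 15%. With estradiol, 12 (20%) read above both withdrawal arrays, beside 11.5%, and 0 read below them, beside 10.2%. Against doxycycline, 27 members (45%) read higher with estradiol, beside 27%, and 4 (6.67%) read lower, beside 24.7%. The 9 include Hnrnpc and a dim Snrpb2 probe set, and the 27 include Hnrnpc and a dim Srsf3 probe set. The doxycycline means of these probe sets lay below the filter signal of about 29.0, so they passed the filter through the other groups. The heat map of the members by array shows these values for every tested probe set.

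**Figure D1:**
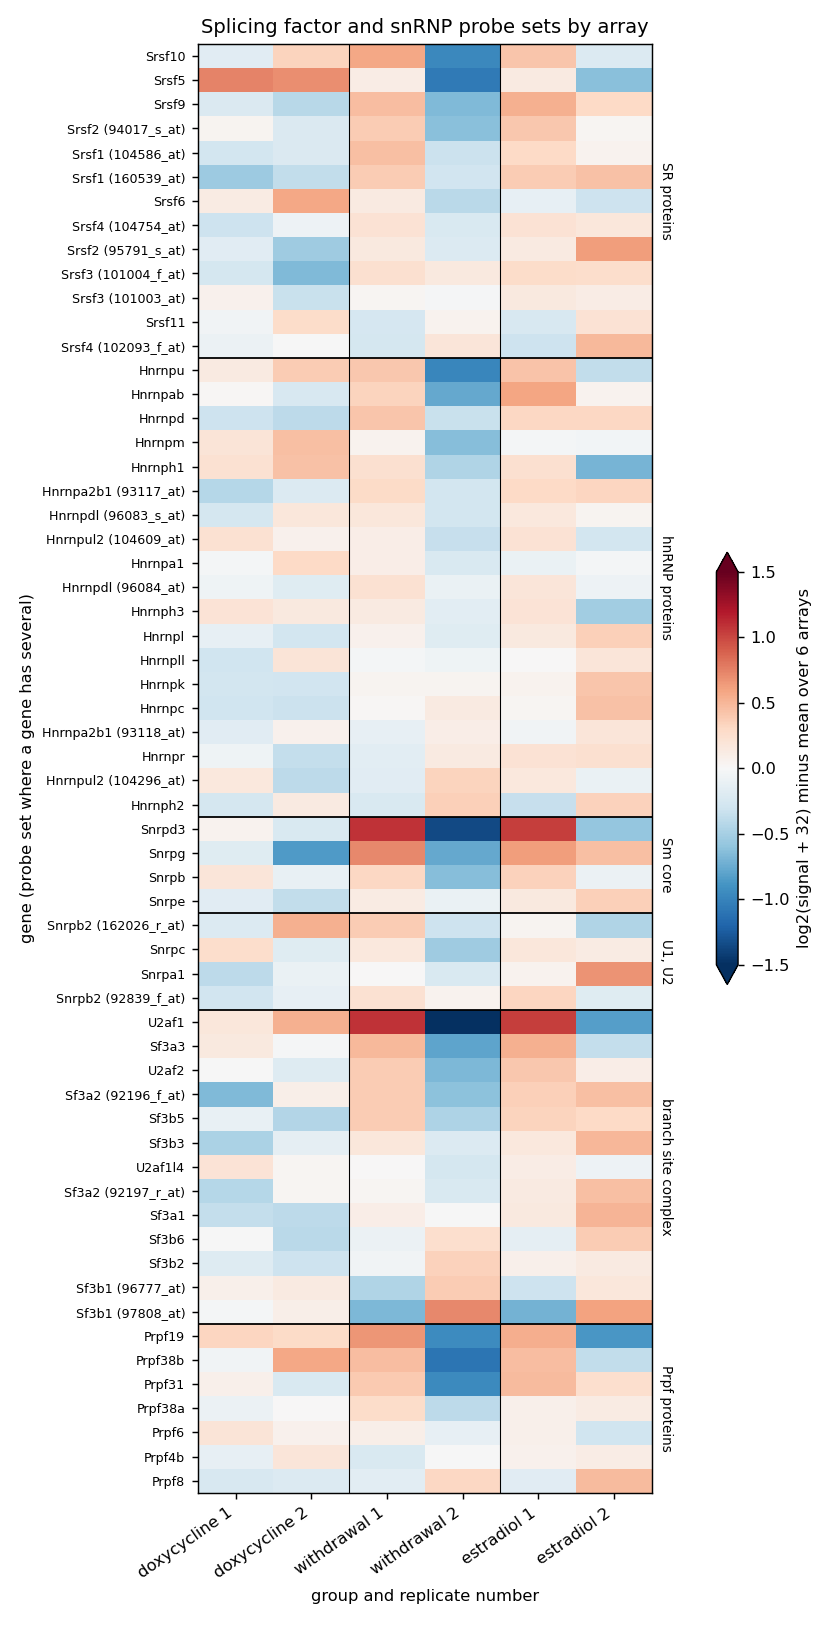
Heat map of the 60 tested splicing factor and snRNP probe sets (rows, grouped by role) on the 6 arrays (columns, by group and replicate number), coloured by log2(signal + 32) minus the probe set's mean over the 6 arrays. Blue is lower and red is higher than that mean; the second withdrawal array is blue for most probe sets of each role (member median -0.25), while the first withdrawal and first estradiol arrays look alike (member medians 0.15 and 0.16).

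The SR proteins were read by 13 tested probe sets of 9 genes. For withdrawal against doxycycline, 2 of the 13 (15.4%) had a limma unadjusted p under 0.05, beside 4.37% of all tested probe sets. For estradiol against withdrawal it was 0, beside 0.698%, and for estradiol against doxycycline 3 (23.1%), beside 14%. The SR median log2 fold change was 0.14 for withdrawal against doxycycline, 0.20 for estradiol against withdrawal and 0.31 for estradiol against doxycycline, and 0 passed in each. Log2 fold changes below are limma estimates with their standard error (SE, n = 2 arrays per group).

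Srsf5, an SR protein that binds exonic enhancers, had the lowest value of the members after withdrawal. Its signals were 1132 and 1097 on the doxycycline arrays, 719 and 301 on the withdrawal arrays and 730.5 and 417 on the estradiol arrays. Both doxycycline arrays lay above the other 4, and within the withdrawal and estradiol groups the second array lay below the first. Its log2 fold change was -1.20 ± 0.43 for withdrawal against doxycycline (limma unadjusted p = 0.0236, adjusted p = 0.925), 0.23 ± 0.43 for estradiol against withdrawal, and -0.97 ± 0.43 for estradiol against doxycycline (adjusted p = 0.365). Per replicate number, the fold change after withdrawal was -0.63 for replicate 1 and -1.76 for replicate 2.

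Srsf3, the smallest SR protein, which also couples splicing to mRNA export, differed the other way. The brighter of its probe sets read 154 and 109 on the doxycycline arrays, 230.5 and 214 on the withdrawal arrays and 238 and 236 on the estradiol arrays. The doxycycline arrays lay below the other 4, which were close together. The log2 fold change was 0.65 ± 0.26 after withdrawal (limma unadjusted p = 0.0376, adjusted p = 0.925) and 0.73 ± 0.26 with estradiol against doxycycline (adjusted p = 0.301). The probe set's name ends in _f_at, the array maker's mark for probes shared within a gene family, so its signal may include related transcripts. The other Srsf3 probe set was dim, at 33.0 and 17.4 on the doxycycline arrays, 31.8 and 29.3 on the withdrawal arrays and 37.0 and 35.4 on the estradiol arrays, with fold changes of 0.14 ± 0.25 and 0.27 ± 0.25 in the same comparisons. Its doxycycline mean lay below the filter signal of about 29.0, so it passed the filter through the groups in which it was higher.

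Srsf1, the founding SR protein and a known proto-oncogene, read 87.0 and 102 on the doxycycline arrays, 194 and 110.1 on the withdrawal arrays and 194 and 203 on the estradiol arrays. Of the withdrawal arrays, the second lay near the doxycycline level and the first at the estradiol level. It gave a log2 fold change of 0.51 ± 0.29 after withdrawal (limma adjusted p = 0.925) and 0.87 ± 0.29 for estradiol against doxycycline (unadjusted p = 0.0175, adjusted p = 0.286). The other tested Srsf1 probe set read 68.9 and 73.3 on the doxycycline arrays, 135 and 65.6 on the withdrawal arrays and 119 and 94.0 on the estradiol arrays, with fold changes of 0.31 ± 0.31 and 0.42 ± 0.31.

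Srsf2, an SR protein with its RNA-binding domain at the front of the chain, was read by a pair of probe sets, both marked _s_at for probes shared between transcripts. The brighter read 2942 and 2459 on the doxycycline arrays, 3729.9 and 1838 on the withdrawal arrays and 3814 and 2918 on the estradiol arrays, and its groups overlapped in every comparison. The dimmer read 435 and 332 on the doxycycline arrays, 551 and 426 on the withdrawal arrays and 545 and 779 on the estradiol arrays, with a log2 fold change of 0.73 ± 0.31 for estradiol against doxycycline (limma unadjusted p = 0.0453, adjusted p = 0.348). On that probe set the second estradiol array was the highest of the 6.

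Srsf9 and Srsf6 pointed in opposite directions. Srsf9, a close relative of Srsf1, read 639.8 and 551 on the doxycycline arrays, 1046 and 459 on the withdrawal arrays and 1094 and 925 on the estradiol arrays. It gave 0.22 ± 0.39 for withdrawal against doxycycline and 0.73 ± 0.39 for estradiol against doxycycline (limma adjusted p = 0.431). Srsf6, an SR protein that binds exonic enhancers, read 657 and 916 on the doxycycline arrays, 664 and 446 on the withdrawal arrays and 551 and 481 on the estradiol arrays. Its estradiol arrays lay below both doxycycline arrays, with a log2 fold change of -0.56 ± 0.32 (limma adjusted p = 0.449). The other SR probe sets, for Srsf4 (a pair), Srsf10 and Srsf11, had log2 fold changes from -0.28 to 0.18 for withdrawal against doxycycline and from -0.12 to 0.39 for estradiol against doxycycline.

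Promoter sequence is shown for the SR genes with the lowest and the highest value in estradiol against doxycycline, Srsf5 and Srsf1, and for 3 further members with a motif match, as the letters upstream of genes whose RNA was measured. Windows of 250 bases before the annotated start were taken from RefSeq (build GRCm38.p6) for 46 of the 51 genes, and none was matched for Hnrnpll, Hnrnpul2, Sf3b5, Snrpb and U2af2. The motifs searched on both strands were the E-box CACGTG bound by MYC and MAX, the E2F element TTTCCCGC or TTTGGCGC, and the IRF element of the interferon response. Capitals mark the E2F element in the first 3 lines, on either strand, and the E-box in the fourth, and the window of Srsf5 held none of the motifs. The windows are chr11:88047123-88047372 (plus strand) for Srsf1, chr4:135855821-135856070 (plus) for Srsf10, chr17:31658765-31659014 (minus) for U2af1, chr5:99978939-99979188 (minus) for Hnrnpd and chr12:80945249-80945498 (plus) for Srsf5.
Srsf1: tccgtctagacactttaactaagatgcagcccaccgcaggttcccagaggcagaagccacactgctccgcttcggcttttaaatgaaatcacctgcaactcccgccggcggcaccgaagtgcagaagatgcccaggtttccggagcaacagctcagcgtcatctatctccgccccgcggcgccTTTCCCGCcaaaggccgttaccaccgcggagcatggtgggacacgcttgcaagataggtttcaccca
Srsf10: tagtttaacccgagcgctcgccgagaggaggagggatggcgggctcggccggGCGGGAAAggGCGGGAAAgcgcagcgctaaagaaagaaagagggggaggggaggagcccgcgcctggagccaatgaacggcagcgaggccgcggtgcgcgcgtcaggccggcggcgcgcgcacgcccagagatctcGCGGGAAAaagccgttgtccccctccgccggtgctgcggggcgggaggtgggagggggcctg
U2af1: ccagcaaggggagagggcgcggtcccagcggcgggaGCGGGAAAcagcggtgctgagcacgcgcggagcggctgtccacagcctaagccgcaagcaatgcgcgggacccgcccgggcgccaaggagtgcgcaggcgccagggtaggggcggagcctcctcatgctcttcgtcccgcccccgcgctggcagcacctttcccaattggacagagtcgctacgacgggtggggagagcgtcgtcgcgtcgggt
Hnrnpd: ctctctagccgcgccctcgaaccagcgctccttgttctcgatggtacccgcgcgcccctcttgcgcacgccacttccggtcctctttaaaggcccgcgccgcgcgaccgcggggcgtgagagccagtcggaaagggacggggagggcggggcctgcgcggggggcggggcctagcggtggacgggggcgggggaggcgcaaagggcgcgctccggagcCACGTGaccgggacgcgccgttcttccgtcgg
Srsf5: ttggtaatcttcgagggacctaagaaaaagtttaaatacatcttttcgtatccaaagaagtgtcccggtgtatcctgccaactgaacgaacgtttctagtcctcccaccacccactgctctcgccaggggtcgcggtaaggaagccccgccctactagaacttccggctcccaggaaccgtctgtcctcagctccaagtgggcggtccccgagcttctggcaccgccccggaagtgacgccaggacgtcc
The E2F element began 67 bases before the start of Srsf1, 198 bases before that of Srsf10 (the first of 3 matches) and 214 bases before that of U2af1, and Hnrnpr, not shown, also held a match. The E2F element was in the windows of 4 of 46 member genes (8.7%) and of 1.51% of all 27025 genes with a window. The E-box was in 2 of 46 (4.35%, Hnrnpd and, not shown, Prpf39) and in 6.86% of all genes, and began 32 bases before the start of Hnrnpd. The IRF element was in 0 of 46 member genes and in 3.46% of all genes. Member windows were richer in G and C, with a median of 60% and 20.5 CpG sites against 52.4% and 6 over all windows, and the part of base composition in these shares was not tested. A match is a run of letters and not a measured binding site.

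The hnRNP proteins were the widest group, with 19 tested probe sets of 16 genes. Their medians were 0.04 for withdrawal against doxycycline, 0.15 for estradiol against withdrawal and 0.15 for estradiol against doxycycline, and 0 passed in each. Lower values after withdrawal were led by Hnrnpm, Hnrnpu and Hnrnph1.

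Hnrnpm, which binds GU-rich RNA and influences exon choice, read 1211 and 1459 on the doxycycline arrays, 1102 and 670.0 on the withdrawal arrays and 1038 and 1026 on the estradiol arrays. Both withdrawal arrays and both estradiol arrays lay below the doxycycline arrays. The log2 fold change was -0.61 ± 0.32 for withdrawal against doxycycline (limma adjusted p = 0.925) and -0.36 ± 0.32 for estradiol against doxycycline. Hnrnph1, which binds runs of guanine, had signals of 1213 and 1403 on the doxycycline arrays, 1219 and 744 on the withdrawal arrays and 1217 and 622 on the estradiol arrays. Replicate 1 arrays read alike in the 3 groups, and the second withdrawal and estradiol arrays were the lowest. The fold change was -0.44 ± 0.39 after withdrawal and -0.56 ± 0.39 for estradiol against doxycycline (limma adjusted p = 0.55).

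Hnrnpu, a chromatin-associated scaffold protein, read 221 and 269 on the doxycycline arrays, 273 and 85.6 on the withdrawal arrays and 278 and 147 on the estradiol arrays. The withdrawal arrays bracketed the doxycycline arrays, which left a fold change of -0.54 ± 0.46. Hnrnph3, a relative of Hnrnph1, read 113 and 108 on the doxycycline arrays, 107 and 81.1 on the withdrawal arrays and 114 and 56.5 on the estradiol arrays, and its second estradiol array was the lowest of the 6. The fold changes were -0.19 ± 0.30 for withdrawal against doxycycline and -0.33 ± 0.30 for estradiol against doxycycline.

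Hnrnpd, also known as AUF1, which binds AU-rich elements and promotes mRNA decay, read 382 and 359 on the doxycycline arrays, 653 and 375 on the withdrawal arrays and 608 and 607 on the estradiol arrays. Both estradiol arrays and the first withdrawal array lay well above the other 3 arrays. Hnrnpd gave a log2 fold change of 0.39 ± 0.32 after withdrawal and 0.67 ± 0.32 for estradiol against doxycycline (limma adjusted p = 0.385), the largest of the hnRNP group. Hnrnpa2b1, an abundant binder of nascent RNA, read 719 and 851 on the doxycycline arrays, 1200.3 and 807 on the withdrawal arrays and 1213 and 1239 on the estradiol arrays on its brighter probe set. It gave 0.32 ± 0.30 after withdrawal and 0.63 ± 0.30 for estradiol against doxycycline (limma adjusted p = 0.386). The dimmer Hnrnpa2b1 probe set gave 0.12 ± 0.25 in the latter comparison.

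Hnrnpc, which binds uridine tracts in nascent RNA, was near the filter, at 27.1 and 26.3 on the doxycycline arrays, 41.4 and 48.2 on the withdrawal arrays and 42.1 and 66.8 on the estradiol arrays. All 4 arrays without doxycycline lay above both with it, with fold changes of 0.39 ± 0.25 and 0.54 ± 0.25 (limma adjusted p = 0.38). Both doxycycline signals lay below the filter signal of about 29.0. The probe set thus passed the filter through the groups in which it was high, and that selection favours such a difference. Hnrnpab, a relative of Hnrnpd, read 303 and 249 on the doxycycline arrays, 388 and 164 on the withdrawal arrays and 469.8 and 313 on the estradiol arrays. Its largest difference was 0.54 ± 0.40 for estradiol against withdrawal (limma adjusted p = 1), with the second withdrawal array the lowest of the 6. The other 11 hnRNP probe sets had fold changes from -0.27 to 0.33 for withdrawal against doxycycline and from -0.20 to 0.52 for estradiol against doxycycline.

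The Sm core was read for 4 genes, Snrpb, Snrpd3, Snrpe and Snrpg, by 1 tested probe set each. Their proteins form the ring around the RNA of U1, U2, U4 and U5. The medians were 0.12, 0.33 and 0.42 for withdrawal against doxycycline, estradiol against withdrawal and estradiol against doxycycline, the highest of the 6 roles in the latter pair of comparisons, and 0 of 4 passed.

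Snrpg had the highest value of all members in estradiol against doxycycline. Its signals were 737 and 449 on the doxycycline arrays, 1394 and 479.7 on the withdrawal arrays and 1313 and 1154 on the estradiol arrays. The second withdrawal array lay among the doxycycline arrays and the first at the level of the estradiol arrays. The log2 fold change was 0.49 ± 0.48 after withdrawal (limma adjusted p = 0.938) and 1.05 ± 0.48 for estradiol against doxycycline (adjusted p = 0.373). Snrpe read 621 and 539 on the doxycycline arrays, 772 and 657 on the withdrawal arrays and 783 and 915 on the estradiol arrays on a probe set marked _f_at, and its groups did not overlap in any comparison. Its fold changes were 0.29 ± 0.27, 0.24 ± 0.27 and 0.53 ± 0.27 (limma adjusted p = 0.422 for the last).

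Snrpd3 split by replicate number. It read 165 and 130.2 on the doxycycline arrays, 370.4 and 42.5 on the withdrawal arrays and 359 and 94.9 on the estradiol arrays, so that the second arrays without doxycycline were the lowest of the 6 and the first arrays the highest. Per replicate number its fold change after withdrawal was 1.03 for replicate 1 and -1.12 for replicate 2, which averaged to -0.05 ± 0.76. Snrpb, another ring subunit, read 4668 and 3775 on the doxycycline arrays, 5088 and 2620.0 on the withdrawal arrays and 5211 and 3859 on the estradiol arrays on a probe set marked _r_at, chosen by the array maker under relaxed rules. Its fold changes were -0.20 ± 0.37, 0.29 ± 0.37 and 0.09 ± 0.37 in the 3 comparisons.

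**Figure D2:**
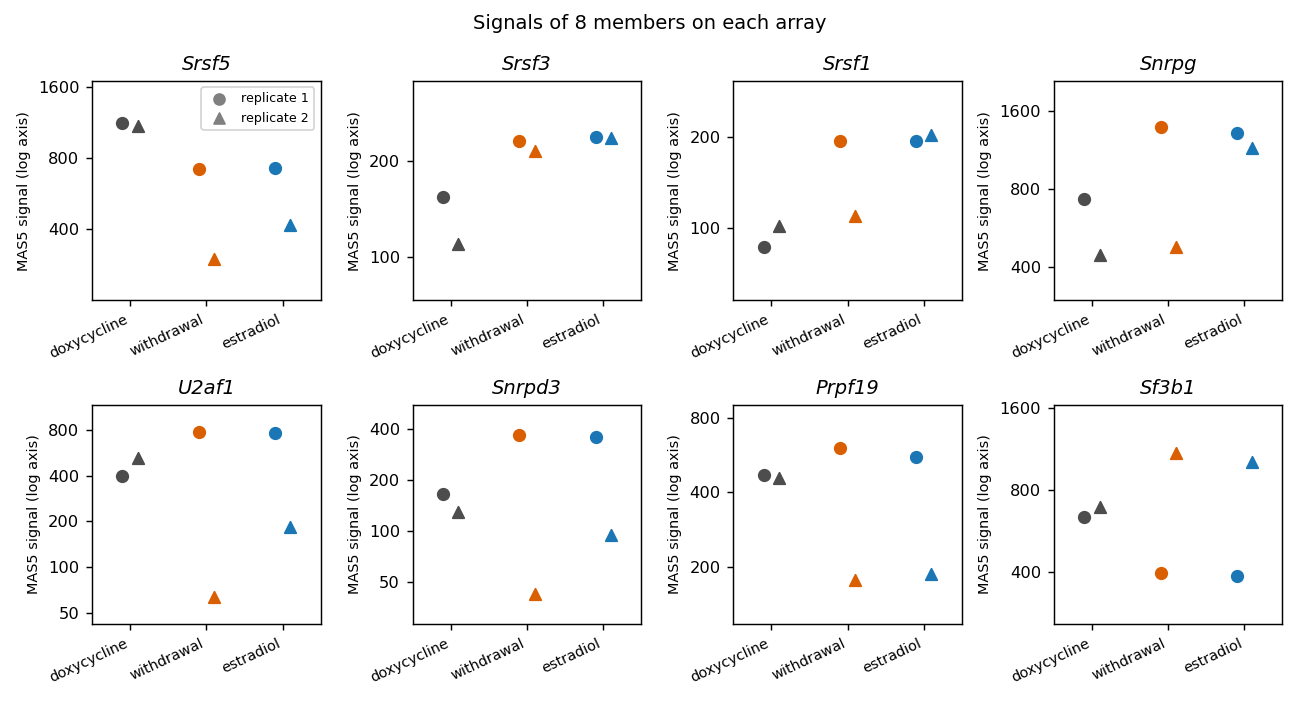
MAS5 signal (log axis, 1 panel per gene with its own range) of Srsf5, Srsf3, Srsf1, Snrpg, U2af1, Snrpd3, Prpf19 and Sf3b1 on each array, by group, with circles for replicate 1 and triangles for replicate 2. Srsf5 is highest and Srsf3 lowest on both doxycycline arrays, while U2af1, Snrpd3 and Prpf19 split by replicate number without doxycycline, with U2af1 at 779 and 63.7 on the withdrawal arrays.

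U1 and U2 snRNP proteins were read by 4 tested probe sets of 3 genes, with medians of 0.00, 0.13 and 0.19 in the 3 comparisons and 0 calls. Snrpa1, the U2 A' protein, read 60.9 and 81.6 on the doxycycline arrays, 90.7 and 71.8 on the withdrawal arrays and 94.8 and 162 on the estradiol arrays, and the second estradiol array was the highest of the 6. Its fold change was 0.48 ± 0.29 for estradiol against withdrawal and 0.61 ± 0.29 for estradiol against doxycycline (limma adjusted p = 0.386). Snrpc, the U1 C protein that steadies pairing of U1 with the start of the intron, read 488 and 349 on the doxycycline arrays, 452 and 268 on the withdrawal arrays and 455 and 439 on the estradiol arrays. Its groups overlapped in all comparisons, with fold changes of -0.23 ± 0.33, 0.33 ± 0.33 and 0.11 ± 0.33.

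Snrpb2, the partner of Snrpa1 in U2, had a pair of probe sets that did not match each other in direction against doxycycline. The first (_r_at) read 53.4 and 110.5 on the doxycycline arrays, 95.9 and 47.1 on the withdrawal arrays and 69.3 and 39.5 on the estradiol arrays and gave -0.13 ± 0.36 after withdrawal and -0.37 ± 0.36 for estradiol against doxycycline. The second (_f_at) read 22.8 and 29.1 on the doxycycline arrays, 46.2 and 37.1 on the withdrawal arrays and 51.4 and 26.8 on the estradiol arrays and gave 0.35 ± 0.27 and 0.28 ± 0.27. For estradiol against withdrawal the fold changes were both below 0, at -0.24 ± 0.36 and -0.07 ± 0.27. Both probe sets were dim, and neither passed in any comparison. On the second, the doxycycline mean lay below the filter signal of about 29.0, so it passed the filter through the other groups.

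Branch site genes (Sf3a, Sf3b and U2af) were read by 13 tested probe sets of 11 genes. Their medians were 0.10, 0.28 and 0.35 in the 3 comparisons, and 0 passed. Sf3a1, a U2 subunit that helps join SF3A to the particle, read 207 and 202 on the doxycycline arrays, 296 and 273 on the withdrawal arrays and 308 and 402 on the estradiol arrays. The withdrawal arrays lay above the doxycycline arrays, and the estradiol arrays above both. Its log2 fold change was 0.42 ± 0.27 after withdrawal, 0.28 ± 0.27 for estradiol against withdrawal, and 0.70 ± 0.27 for estradiol against doxycycline (limma unadjusted p = 0.0288, adjusted p = 0.318).

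Sf3a2, another SF3A subunit, read 1016 and 1729 on the doxycycline arrays, 2117 and 1046 on the withdrawal arrays and 2083 and 2220.1 on the estradiol arrays on its brighter probe set. Its second withdrawal array lay with the first doxycycline array, and the fold change for estradiol against doxycycline was 0.68 ± 0.40 (limma adjusted p = 0.469). That value was 0.31 without the first doxycycline array and 1.06 without the second. The other Sf3a2 probe set gave 0.49 ± 0.30. Sf3b2, an SF3B subunit next to the branch site, read 171 and 154 on the doxycycline arrays, 191 and 263 on the withdrawal arrays and 213 and 222 on the estradiol arrays, with all 4 arrays without doxycycline above both with it. Its fold changes were 0.40 ± 0.27 and 0.36 ± 0.27.

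Sf3b1, the SF3B subunit that clasps the branch site, differed with opposite signs by replicate number on both of its probe sets. The brighter read 635 and 693 on the doxycycline arrays, 395 and 1097 on the withdrawal arrays and 385 and 1009.5 on the estradiol arrays, and the dimmer read 201 and 211 on the doxycycline arrays, 130.2 and 257 on the withdrawal arrays and 148 and 219 on the estradiol arrays. On the brighter, withdrawal against doxycycline was -0.64 in replicate 1 and 0.64 in replicate 2, which averaged to 0.00 ± 0.54. On the dimmer, the values were -0.53 and 0.25. Sf3b1 was the 1 member at least 2-fold higher on the second than on the first withdrawal array.

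U2af1, the small U2AF subunit that reads the AG at the end of the intron, had the widest spread of any member. It read 400.4 and 525 on the doxycycline arrays, 779 and 63.7 on the withdrawal arrays and 758 and 185 on the estradiol arrays. The first arrays without doxycycline were the highest and the second the lowest of the 6. Its fold change was -0.82 ± 0.93 after withdrawal, which combined 0.91 for replicate 1 with -2.54 for replicate 2, and -0.25 ± 0.93 for estradiol against doxycycline. Without the second withdrawal array the fold change after withdrawal was 0.73, and without the first it was -2.36 (limma adjusted p = 0.706 and 0.552).

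U2af2, the large U2AF subunit that binds the polypyrimidine tract, was bright, at 2762 and 2427 on the doxycycline arrays, 3629.9 and 1734 on the withdrawal arrays and 3679 and 2973 on the estradiol arrays. It gave -0.04 ± 0.38, 0.39 ± 0.38 and 0.35 ± 0.38 in the 3 comparisons. U2af1l4, a relative of U2af1, read 222 and 193 on the doxycycline arrays, 189.9 and 151 on the withdrawal arrays and 205 and 176 on the estradiol arrays, and its withdrawal arrays lay just below the doxycycline arrays (-0.24 ± 0.26). The other 5 probe sets of the group, for Sf3a2, Sf3a3, Sf3b3, Sf3b5 and Sf3b6, ran from -0.21 to 0.29 after withdrawal and from 0.03 to 0.63 for estradiol against doxycycline.

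The Prpf group had 7 tested probe sets of 7 genes and was the 1 role with a median below 0 after withdrawal. Its medians were -0.15, 0.16 and 0.05 in the 3 comparisons, and 0 passed. Prpf19, a ubiquitin ligase of the complex that activates the spliceosome, read 468 and 455 on the doxycycline arrays, 603 and 176 on the withdrawal arrays and 554 and 186 on the estradiol arrays. The second withdrawal and estradiol arrays were the lowest of the 6 and the first were the highest. Its fold changes were -0.44 ± 0.59 and -0.47 ± 0.59 against doxycycline.

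Prpf38b, a relative of a protein of the activating spliceosome, read 111 and 188 on the doxycycline arrays, 172 and 37.3 on the withdrawal arrays and 173 and 82.9 on the estradiol arrays, with the second withdrawal array the lowest. Its fold change after withdrawal was -0.58 ± 0.52 (limma adjusted p = 0.935), from 0.51 in replicate 1 and -1.67 in replicate 2. Prpf31, a protein of the U4/U6 particle, read 274 and 215 on the doxycycline arrays, 348 and 118 on the withdrawal arrays and 371 and 312 on the estradiol arrays. Its largest difference was 0.64 ± 0.43 for estradiol against withdrawal (limma adjusted p = 1), the largest of the members in that comparison.

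Prpf8, the U5 protein at the centre of the spliceosome's active site, read 932 and 959 on the doxycycline arrays, 987 and 1382 on the withdrawal arrays and 978 and 1556 on the estradiol arrays. All 4 arrays without doxycycline lay above both with it, with fold changes of 0.30 ± 0.33 and 0.37 ± 0.33. Prpf6, which bridges U5 and U4/U6, read 919.9 and 841 on the doxycycline arrays, 855 and 732 on the withdrawal arrays and 844 and 645 on the estradiol arrays and gave -0.15 ± 0.28 and -0.24 ± 0.28. The remaining members, Prpf38a and Prpf4b, had fold changes between -0.15 and 0.14 against doxycycline.

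Many members differed between the 2 arrays of the withdrawal group. On the second withdrawal array 14 members (23.3%) were at least 2-fold lower than on the first, beside 5.96% of all tested probe sets, and 1 member (1.67%) was at least 2-fold higher, beside 6.39%. The 14 were U2af1, Snrpd3, Prpf19, Prpf38b, Srsf10, Snrpg, Hnrnpu, Prpf31, Sf3a3, Srsf5, Srsf9, Hnrnpab, U2af2 and Srsf2. For estradiol, 3 members (5%) were at least 2-fold lower on the second array, beside 1.8%, and 1 (1.67%) was higher, beside 1.56%. For doxycycline, 0 were lower, beside 1.53%, and 0 higher, beside 2.27%.

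The sign of the difference also depended on the replicate number. For withdrawal against doxycycline, 16 members were higher in both replicate numbers, 9 were lower in both, 28 were higher in replicate 1 and lower in replicate 2, and 7 the reverse. The members' median was 0.31 in replicate 1 and -0.19 in replicate 2, beside 0.02 and 0.03 for all tested probe sets. For estradiol against withdrawal the members' median was 0.01 in replicate 1 and 0.39 in replicate 2, beside 0.00 and 0.01. For estradiol against doxycycline it was 0.30 and 0.25, beside 0.03 and 0.00. In that comparison 31 members were higher in both replicate numbers and 8 lower in both. Counts by replicate number were not taken over all tested probe sets.

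**Figure D3:**
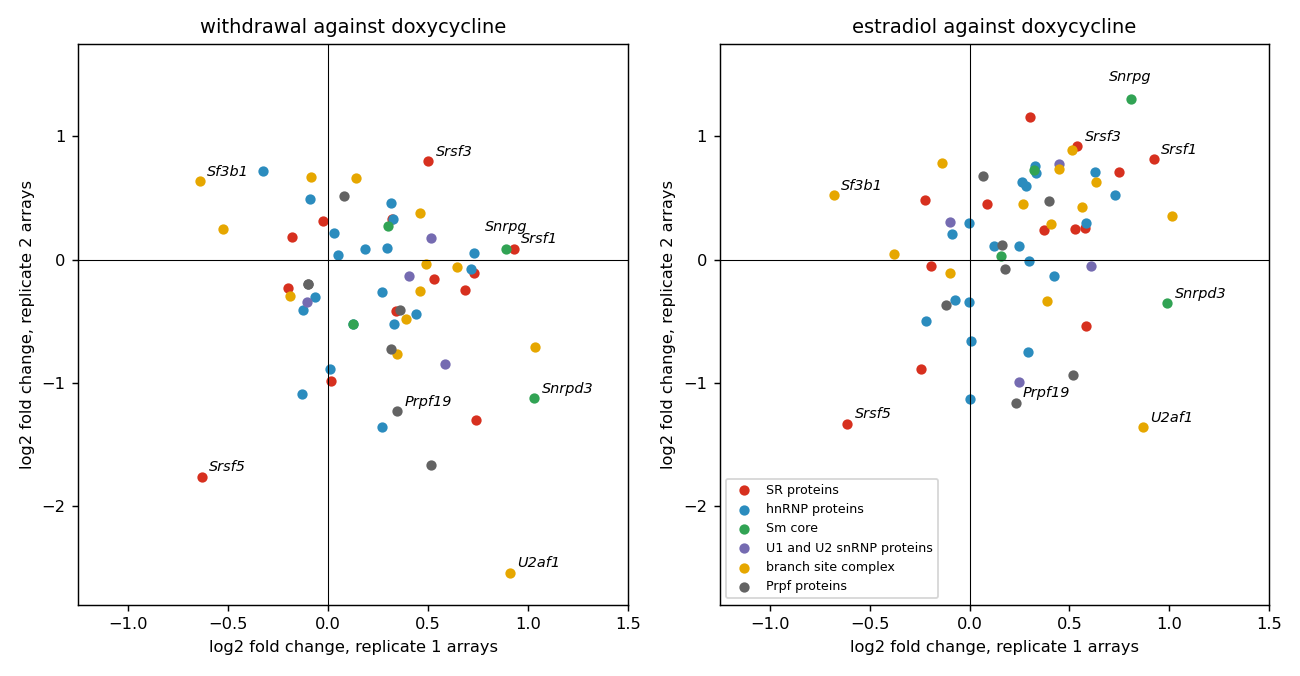
Log2 fold change of each of the 60 tested members in the replicate 1 arrays (horizontal axis) and in the replicate 2 arrays (vertical axis), for withdrawal against doxycycline (left) and estradiol against doxycycline (right), coloured by role. On the left 28 points lie right of the vertical line and below the horizontal one, with U2af1 lowest. On the right 31 points are above 0 on both axes. Counts by replicate number were not taken over all tested probe sets.

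The pseudogene-named probe set, Snrp1c-ps2, carries the name of a pseudogene of the U1 C protein and ends in _f_at, so its signal may include family transcripts. It read 93.4 and 66.1 on the doxycycline arrays, 234 and 211 on the withdrawal arrays and 387 and 223 on the estradiol arrays, and both doxycycline arrays lay below the other 4. Its log2 fold change was 1.20 ± 0.31 for withdrawal against doxycycline (limma unadjusted p = 0.00483, adjusted p = 0.925) and 1.56 ± 0.31 for estradiol against doxycycline (unadjusted p = 0.00099, adjusted p = 0.255). From the doxycycline and estradiol arrays alone it passed the latter comparison, with a limma adjusted p of 0.0482, and 0.0234 with the replicate block added. In these fits 132 and 281 of all 7453 tested probe sets passed, against 0 in the full fit. It did not pass with the replicate block over all groups (limma adjusted p = 0.201), where 0 of all tested probe sets passed. With a single doxycycline or estradiol array left out, its log2 fold change ran from 1.20 (without the first estradiol array) to 1.92 (without the second). Snrpc itself gave -0.23 ± 0.33 for withdrawal against doxycycline and 0.11 ± 0.33 for estradiol against doxycycline.

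The filter left out 10 probe sets, each with a mean log2 signal below a signal of about 29.0. These read Hnrnpab, Hnrnpdl, Hnrnpu, Prpf19, Snrpb and Srsf10 (1 each) and Prpf39 and Srsf1 (a pair each). Only Prpf39 was lost as a gene, since the others kept a brighter probe set. A further 7 probe sets carried such a symbol beside others and were not counted as members. Among the 10 genes with a pair of tested probe sets, none had opposite signs with both beyond 0.5.

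Other genes of the splicing machinery came from a list of 130, covering further spliceosome genes (snRNP, Sm-like, helicase, kinase and exon junction genes) and other RNA-binding proteins, of which 86 were tested with 102 probe sets. After withdrawal 63 of the 102 were higher and 39 lower than with doxycycline (median 0.11), with estradiol against withdrawal 66 and 36 (median 0.13), and with estradiol against doxycycline 66 and 36 (median 0.20). The test passed 0 in each, and 6 (5.88%), 1 (0.98%) and 15 (14.7%) had an unadjusted p under 0.05. These shares lay near the 4.37%, 0.698% and 14% of all tested probe sets.

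Clk1, a kinase that phosphorylates SR proteins, had the lowest value of this list for estradiol against doxycycline. It read 1578 and 1951 on the doxycycline arrays, 1004 and 899 on the withdrawal arrays and 975 and 596 on the estradiol arrays, so both doxycycline arrays lay above the other 4. Its log2 fold change was -0.86 ± 0.32 after withdrawal and -1.17 ± 0.32 with estradiol against doxycycline (limma unadjusted p = 0.00631, adjusted p = 0.255). Clk4, a kinase of the same family, gave -0.97 ± 0.37 in the latter comparison on its brighter probe set. Lsm2, a subunit of the Sm-like ring on U6, was the highest, at 232 and 163 on the doxycycline arrays, 566 and 299 on the withdrawal arrays and 536 and 591 on the estradiol arrays, with fold changes of 0.97 ± 0.35 and 1.39 ± 0.35 (limma adjusted p = 0.255 for the latter). Smn1, which helps load Sm rings onto snRNAs, gave 0.79 ± 0.30 and 1.18 ± 0.30 in these comparisons, and Alyref, an mRNA export adaptor, gave 0.78 ± 0.39 and 1.34 ± 0.39.

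A list of proliferation genes was set beside the member medians by array. Its 26 tested probe sets of 22 genes had medians, relative to the mean over all arrays, of -0.41 and -1.22 in the doxycycline group, 0.58 and -0.54 in the withdrawal group and 0.65 and 0.93 in the estradiol group. The members' medians on the same arrays were -0.08 and -0.11, 0.15 and -0.25, and 0.16 and 0.13. Of the roles, the Sm core had the widest range, at -0.06 and -0.30, 0.51 and -0.70, and 0.49 and 0.14. Proliferation genes were also not called, at 0 of 26 in each comparison, although 23 had an unadjusted p under 0.05 for estradiol against doxycycline (median 1.60). The part of proliferation in the member values was not tested.

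**Figure D4:**
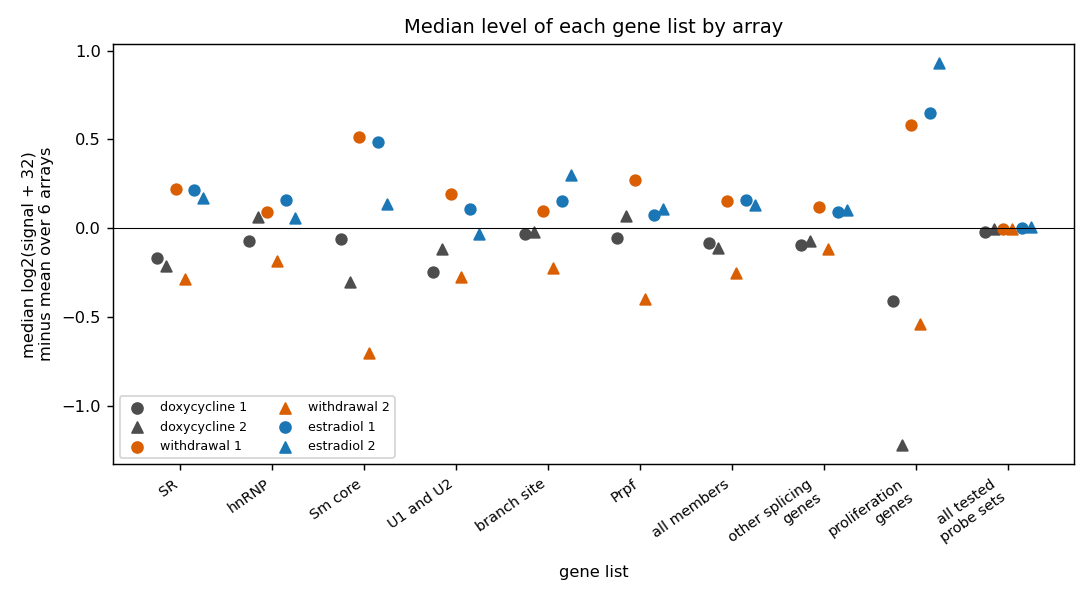
Median over each gene list (horizontal axis) of log2(signal + 32) minus the probe set's mean over the 6 arrays (vertical axis), with 1 point per array, coloured by group, circles for replicate 1 and triangles for replicate 2. The second withdrawal array is the lowest point of each role and of all members (-0.25), and for proliferation genes the second doxycycline array is the lowest (-1.22).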

How the data were processed

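Total RNA of 6 samples was labelled as biotin cRNA, per the labels' protocols, and read on 1 Affymetrix array each. The authors deposited MAS5 signals, an intensity on a linear scale, per the submitters' processing notes, with the software version not given in the sources used here. Trimmed means (2% left out at each end) lay between 150.09 and 150.1 and median signals between 49.7 and 52.65, which shows a common scaling before deposit. Precision is limited by having 2 arrays in a group.

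Arrays were scaled to the common trimmed mean. The 66 control probe sets and the lowest 40% by mean log2(signal + 32) were left out of 12488, which left 7453. These were fitted with limma 3.58.1 in R 4.3.3 with 1 mean per group over all 6 arrays, and an intensity trend (residual df 3, prior df 5.23). P-values are two-sided, with Benjamini-Hochberg adjustment over all tested probe sets and a threshold of 0.05. The pseudocount understates changes of dim probe sets. Gene names came from the platform annotation, and 0 needed an update. Signals of different probe sets are not compared. The fit was tested in 10 simulations, with 200 of 7453 probe sets changed in the withdrawal group and independent spread between arrays. It recovered 82.4% of 8-fold, 61% of 4-fold and 6.2% of 2-fold changes, and 5.16% of its calls were false. Most 2-fold changes in these simulations were therefore missed. In the data, deviations of same-numbered withdrawal and estradiol arrays correlated at 0.449, which was not simulated.

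Members and gene lists were chosen with earlier results of these data known. The E-box was set with the design, and the E2F and IRF elements were added later. Members named with all arrays are, per role and comparison, the 2 probe sets with the largest positive and the 2 with the largest negative differences, the brightest of each role, those with an unadjusted or adjusted p under 0.05, genes whose probe sets disagree beyond 0.5, and pseudogene-named probe sets. Members that the filter left out are named. Of the other lists, at most the 4 highest and 4 lowest per comparison are named, and alternatives covered the pseudocount, filter, scaling, moderation, replicate block, 2-group fits and each array left out.

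Replicate 1 and 2 differ in extraction kit in every group, while the study states no batch. Deviations of same-numbered arrays from their group means correlated at -0.00727 (doxycycline and withdrawal), 0.449 (withdrawal and estradiol) and -0.0284 (doxycycline and estradiol) over the tested probe sets.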

Additional observations from a re-analysis of the deposited data

How the results depend on the processing

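No member passed limma's adjusted test under any alternative run, and under the replicate block 0 members passed in each comparison, with 2 (3.33%), 0 and 5 (8.33%) at an unadjusted p under 0.05 for withdrawal against doxycycline, estradiol against withdrawal and estradiol against doxycycline, below the 5.84%, 0.859% and 16.4% of all tested probe sets. The replicate block leaves the medians at 0.00, 0.20 and 0.22 by construction and changed no call of the 3-group fit. With 1 array left out, members higher for estradiol against withdrawal ranged from 28 to 50, beside 3745 to 3800 of all 7453 tested probe sets. Those member medians ranged from -0.02 (without the second withdrawal array) to 0.40. The median for estradiol against doxycycline ranged from 0.21 to 0.31 with 1 array left out, and was 0.16 with log2(signal + 64) and 0.32 with the lowest 60% of probe sets left out, where 49 members were tested. Over all 7453 probe sets, calls for estradiol against doxycycline were 131 and 133 without the first and second withdrawal array, 132 from the 2 groups alone, 281 with the replicate block and 2 groups, and 28 without the first doxycycline array. They were 26 for withdrawal against doxycycline without the first doxycycline array and 17 for estradiol against withdrawal without the first withdrawal array, against 0 in the full fit. The cause of these changes was not tested. A lone array left in a group is assumed to vary like the other groups, and with 2 arrays per group a lack of calls does not show that members did not differ.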
